A study of Nothobranchius furzeri with 12 samples.

Results

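The step from 3.0 to 4.5 months of age was examined in the retina of the turquoise killifish Nothobranchius furzeri, with the retinal pigment epithelium (RPE) left attached. It rests on 6 of 12 libraries, the 3 fish of 4.5 months set against the 3 fish of 3.0 months. The other 6 libraries, from fish of 1.5 and 6.0 months, entered the fit for its estimate of spread and serve here as reference levels. All fish were untreated males. According to the labels, they came from a mutant line that was crossed back to the GRZ strain over several generations. Which gene is mutated, and which alleles each fish had, is not given in the labels used here, so genotype and age cannot be told apart. The dissection took off lens and cornea, iris, choroid and sclera before RNA was extracted.

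Of the 3 libraries of 4.5 months, replicates 2 and 3 carry the mark "Resub" in their library names, which the labels do not explain, and replicate 1 does not. A change that the Resub pair shows and replicate 1 does not therefore cannot be told apart from whatever the mark stands for. Genes were split on this basis. A gene was shared when it passed the test of 4.5 against 3.0 months and all 3 libraries of 4.5 months lay beyond the range of the 3 libraries of 3.0 months on the same side. A gene belonged to the Resub pair alone when it passed the test of that pair against 3.0 months while replicate 1 did not lie beyond the 3.0-month range on that side.

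The vertebrate retina holds a circadian clock of its own. In that clock, activators of the BMAL and CLOCK families switch on the genes of the period, cryptochrome and nr1d (Rev-erb) families, whose proteins repress the activators in turn, so that the RNA of many of these genes rises and falls within each day. Fish photoreceptors also keep time, and light reaching them changes the RNA of some period genes directly. The time of day at which each fish was collected was not given in the sources used here.

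Total counts ran from 34.4 to 41.0 M at 3.0 months and from 47.0 to 50.0 M at 4.5 months, so depth moved with the comparison, and its part in the results was not tested. The Resub pair were the most alike of the pairs within these ages, with a Spearman correlation of 0.994 across genes, while replicate 1 correlated with them at 0.966 and 0.963. Replicate 1 also held RNA of a tissue that the dissection removes. The summed level of 24 lens genes was 2137 CPM there, where CPM are counts scaled to a common library size, against 52.2 to 74.2 CPM at 3.0 months and 90.7 to 126 CPM in the Resub pair. Within the 3.0-month group, replicate 2 stood apart in the summed level of 81 ribosomal protein genes, at 18790 CPM against 40410 and 44050 CPM in the other 2 libraries. The same sum was 59850 CPM in replicate 1 of 4.5 months and 24370 to 25730 CPM in the Resub pair. Replicate 1 thus lay above the 3.0-month range and the pair inside it.

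At 4.5 against 3.0 months, 66 of 20717 tested genes passed a Benjamini-Hochberg adjusted p of 0.05 in edgeR's quasi-likelihood test, which is 0.319% of them. Of these, 24 were higher (0.116%) and 42 were lower (0.203%). All 66 were shared by the 3 libraries of 4.5 months. Groups that do not overlap were far more common than calls, at 3799 genes or 18.3%, with 9.31% higher and 9.03% lower. Among the 66, 43 had a symbol. Over all 66 the size of the change ran from 0.52 to 4.04 on the log2 scale. The largest was a fall in a gene without a symbol, and the largest rise was 2.87, in csgr19h18orf21. The median size of the change from the 3.0-month mean over the 66 genes was 0.89 in replicate 1 and 1.1 and 1.14 in the Resub libraries on the log2 scale. In 49 of the 66, replicate 1 moved less than the Resub pair did. Because the call was made on all 3 libraries together, these counts describe the set and test nothing further.

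**Figure D1:**
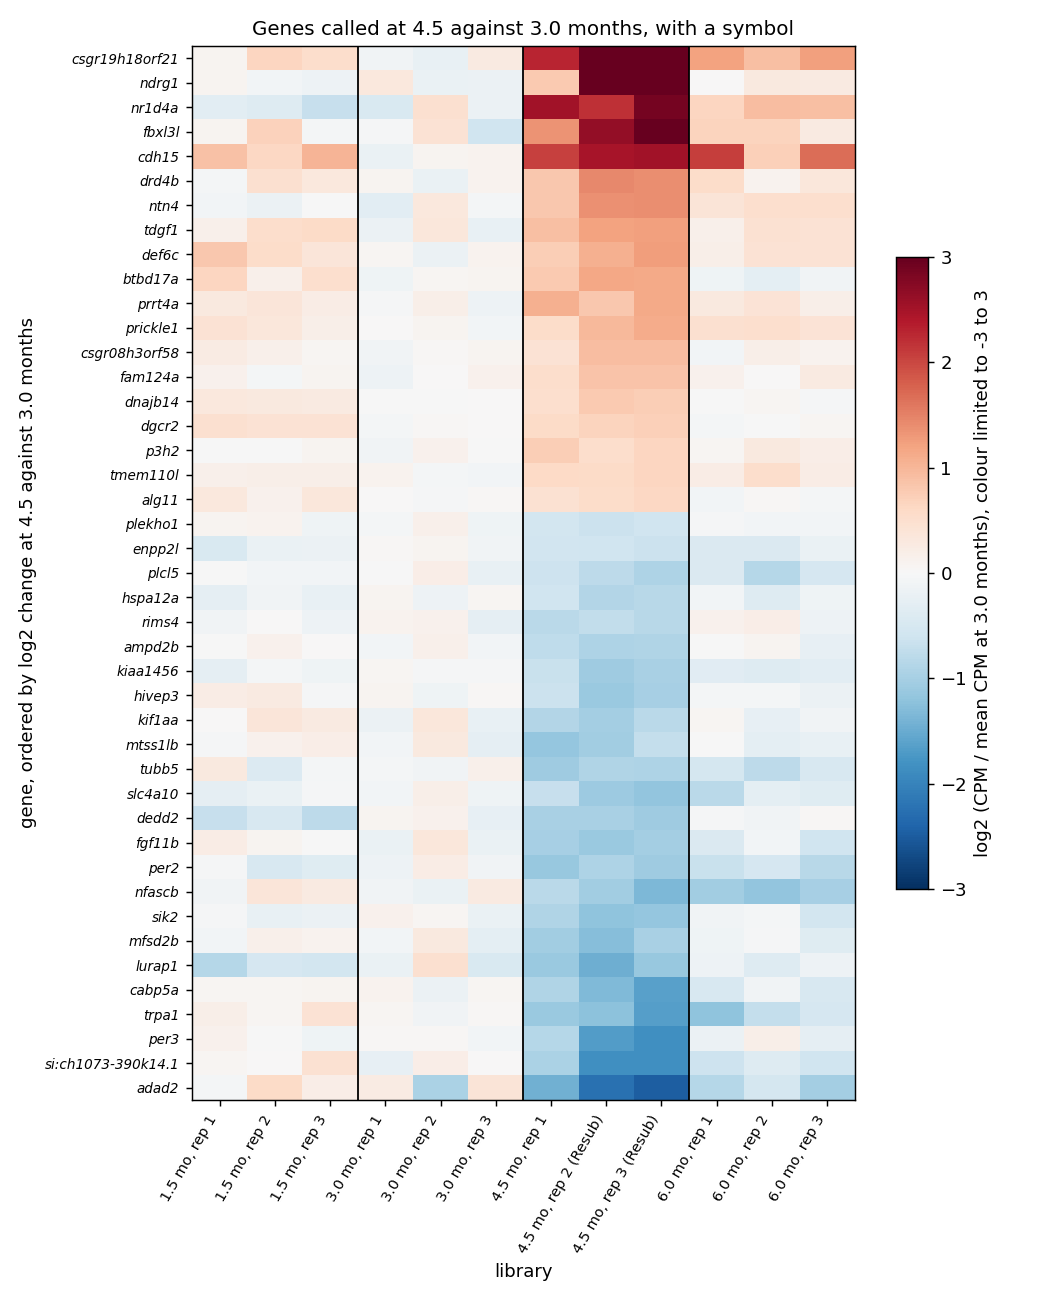
Each row is 1 of the 43 genes with a symbol called at 4.5 against 3.0 months and each column 1 of the 12 libraries; colour gives log2 of CPM over the 3.0-month mean, limited to -3 to 3. The 3 columns of 4.5 months have 1 sign in every row, and the colour is often paler in replicate 1 than in the Resub columns, as in ndrg1.

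The number of calls depended strongly on single libraries and on the tool. It was 795 without replicate 1 of 4.5 months, where only the Resub pair stood for that age. Those 795 calls cannot be told apart from what the mark stands for. The number was 2 without replicate 2 of 4.5 months and 3 without replicate 3. It was 2 without replicate 1 of 3.0 months and 14 without replicate 3 of 3.0 months. Without both Resub libraries 4 genes passed, all of them higher, and DESeq2 called 928 genes on all 12 libraries, 870 of them shared. In the 6 libraries of these ages alone edgeR called 0 genes, with 2332 at an unadjusted p under 0.05, against 3052 (14.7%) in all 12 libraries, and an exact permutation test of 3 fish against 3 cannot go below p = 0.1. Of the 25 genes named below for the step as a whole, nr1d4a and csgr19h18orf21 kept their call in 14 of 15 alternatives, and the other 23 in 6 to 10 of 15, for instance 9 for per2 and cabp5a, 8 for per3, 7 for drd4b and fbxl3l, and 6 for ndrg1 and tubb5.

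**Figure D2:**
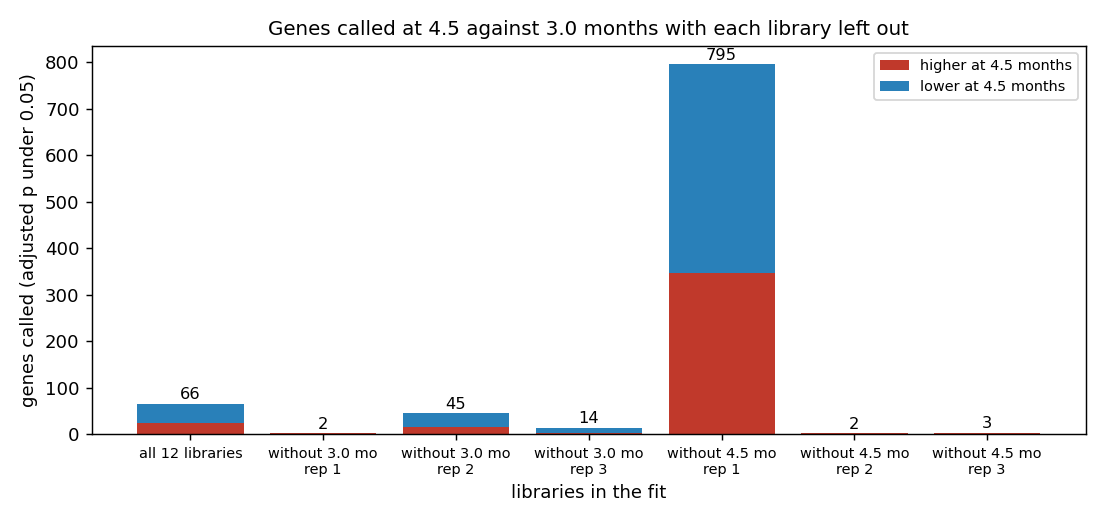
Bars give the number of genes called at 4.5 against 3.0 months (y axis, from 0) with all 12 libraries and with each library of 3.0 or 4.5 months left out, split into higher and lower. The bar without replicate 1 of 4.5 months reaches 795 genes, and those without replicate 2 or 3 of 4.5 months or replicate 1 of 3.0 months hold 3 or fewer.

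Clock genes were among the shared changes: nr1d4a rose, and per2 and per3 fell. The gene nr1d4a belongs to the Rev-erb family of transcriptional repressors. Its level was 3.57, 6.87 and 4.36 CPM at 3.0 months and 28.1, 22.6 and 36.3 CPM at 4.5 months. The 3 libraries of 4.5 months were alike and all stood above the other 9, which reached at most 9.38 CPM. The rise was 2.55 ± 0.25 on the log2 scale (standard error; 5.86-fold, edgeR adjusted p = 0.00345). For replicate 1 alone it was 2.51 (adjusted p = 0.0299 in edgeR, where the lone library is assumed to vary like the other groups), and for the Resub pair it was 2.57.

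The period genes per2 and per3 encode repressors of the clock, and light induces per2 in zebrafish. The level of per2 was 131, 168 and 135 CPM at 3.0 months and 65.8, 76.0 and 69.2 CPM at 4.5 months. As for nr1d4a, the Resub libraries and replicate 1 were level with each other. It fell by 1.04 ± 0.15 on the log2 scale (edgeR adjusted p = 0.0211). The level of per3 was 231, 230 and 212 CPM at 3.0 months, and 123.3 CPM in replicate 1 against 69.9 and 63.1 CPM in the Resub pair. All 3 lay below 3.0 months, replicate 1 by less, and the difference between replicate 1 and the pair did not pass (edgeR adjusted p = 0.0592). Over all 3, per3 fell by 1.39 ± 0.23 on the log2 scale (edgeR adjusted p = 0.0306).

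Among 34 tested clock genes, these 3 were the ones called for the step, 1 higher and 2 lower, against 0.319% of all genes; DESeq2 called 3 higher and 8 lower, against 1.71% and 2.77% of all genes. The median change of the list was -0.25 on the log2 scale, against 0.02 over all tested genes. For the Resub pair against 3.0 months, 803 genes were called, which is 3.88% (351 higher, 1.69%, and 452 lower, 2.18%). Of the 34 clock genes, 14 were called there, 3 higher and 11 lower. Members of any list that were called for the pair are named because they were called, a choice made after their values were seen.

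Of all 803 genes called for the pair, 59% had replicate 1 beyond the 3.0-month range on the same side. Among the 14 clock calls this held for the 3 shared genes and 6 more, a split near that of all genes. These 6 were nfil3, a leucine-zipper repressor of clock output genes, which was higher, and cry5, nr1d2b, csnk1e, usp2a and nfil3-6, which were lower. The level of nfil3 was 12.2, 16 and 16.2 CPM at 3.0 months, 21.3 CPM in replicate 1, and 51.3 and 50.4 CPM in the pair. For nr1d2b, a second Rev-erb gene, it was 305, 260 and 293 CPM at 3.0 months, 221 CPM in replicate 1, and 100 and 112 CPM in the pair. In both genes replicate 1 lay between the 3.0-month libraries and the pair. The pair differed from replicate 1 in nr1d2b and in cry5 (both with edgeR adjusted p = 0.0324), and for cry5 the levels were 12.3 CPM in replicate 1 and 4.79 and 5.29 CPM in the pair against 16.1 to 21.2 CPM at 3.0 months.

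The other 5 clock calls were seen in the Resub pair alone. They were nr1d2a, ciarta, bhlhe40 and tefb, which were lower, and bmal2, a clock activator, which was higher. The level of nr1d2a was 130, 131 and 186 CPM at 3.0 months and 200 CPM in replicate 1, but 24.9 and 28.6 CPM in the Resub libraries. Replicate 1 was thus above the 3.0-month range and the pair below it, and this difference passed (edgeR adjusted p = 0.012). For bmal2 the levels were 78.2, 92.7 and 69.3 CPM at 3.0 months, 64.6 CPM in replicate 1, and 146 and 132 CPM in the pair; its difference from replicate 1 had an adjusted p of 0.0622 in edgeR and did not pass.

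**Figure D3:**
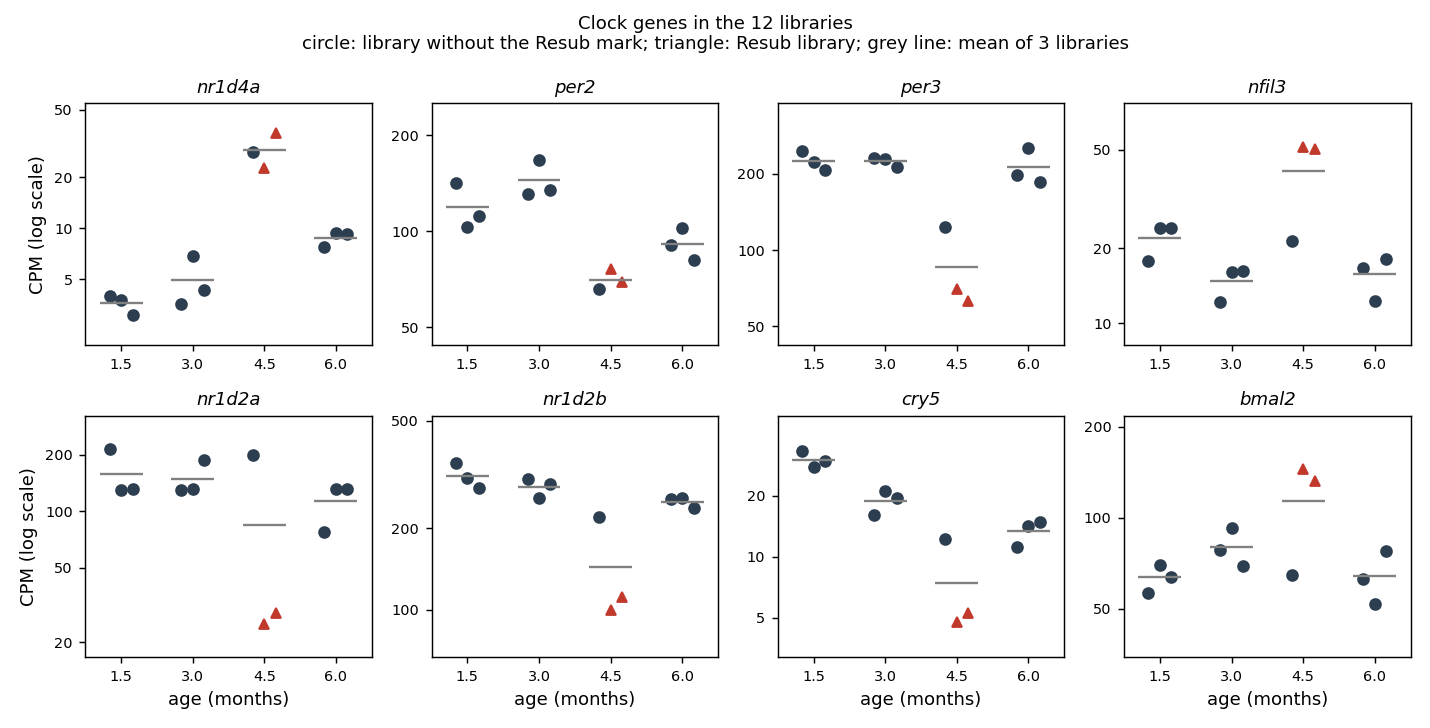
CPM of 8 clock genes (y axis, log scale) by age in months, with 1 point per library, triangles for the Resub libraries and a grey line at the mean of 3. In nr1d4a and per2 the 3 points of 4.5 months lie together, while in nr1d2a, nr1d2b, cry5 and bmal2 the 2 triangles stand apart from the circle of 4.5 months.

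Among the other 11 largest rises shared by the 3 libraries, csgr19h18orf21 had the smallest adjusted p of the step. Its levels were 10.3, 9.39 and 13.3 CPM at 3.0 months, 53.3 CPM in replicate 1, and 91.9 and 95.7 CPM in the pair. All 3 libraries of 4.5 months lay above the other 9, whose highest was 25.9 CPM at 6.0 months. The rise was 2.87 ± 0.24 on the log2 scale (7.30-fold, edgeR adjusted p = 0.00141), and 2.28 for replicate 1 alone (edgeR adjusted p = 0.00838). This gene and nr1d4a were the 2 of the 66 called for replicate 1 alone, where 5 genes in all passed (0.0241%).

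The dopamine D4 receptor gene drd4b, whose mammalian counterpart is made by photoreceptors, rose from 9.79, 8.13 and 10.03 CPM at 3.0 months to 16.4, 25.4 and 24.6 CPM, a log2 change of 1.25 ± 0.20 (edgeR adjusted p = 0.0278). The F-box gene fbxl3l, named after a mammalian gene that marks cryptochromes for breakdown, rose at low levels, from 0.84, 1.16 and 0.56 CPM to 2.18, 5.30 and 7.52 CPM. Its log2 change was 2.54 ± 0.45 (edgeR adjusted p = 0.0418). In both genes replicate 1 lay above the 3.0-month range but below the pair.

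The netrin gene ntn4, a secreted basement-membrane protein, went from 27.19, 42.3 and 32.7 CPM to 59.4, 87.9 and 89.8 CPM (log2 change 1.21 ± 0.18, edgeR adjusted p = 0.0222). Smaller rises were seen in tdgf1, a co-receptor for Nodal signals (log2 change 1.12), in def6c, a guanine nucleotide exchange factor (1.03), in btbd17a (1.03) and in prrt4a (1.01). Those of prickle1, a planar cell polarity gene, and csgr08h3orf58 were 0.90 and 0.78 on the log2 scale. For prrt4a the 3 libraries of 4.5 months were level with each other, at 12.6, 10.6 and 13.3 CPM, whereas for prickle1 replicate 1 was at 15.6 CPM and the pair at 21.0 and 23.3 CPM, against 10.1 to 11.3 CPM at 3.0 months.

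The stress-responsive gene ndrg1, induced by low oxygen in mammalian cells, was the one shared gene in which the Resub pair and replicate 1 differed beyond the threshold. Its levels were 146, 102 and 105 CPM at 3.0 months, 202 CPM in replicate 1, and 1161 and 1133 CPM in the pair. The pair exceeded replicate 1 by 2.504 on the log2 scale (edgeR adjusted p = 0.00593). The step as a whole was 2.82 ± 0.50 on the log2 scale (7.07-fold, edgeR adjusted p = 0.0491), while replicate 1 alone was 0.78 above 3.0 months on that scale and did not pass (edgeR adjusted p = 0.137). It was the 1 gene called for the step among 21 tested genes of the low-oxygen response, against 0.319% of all genes. The median log2 change of that list was 0.17. In the pair 1 further member was called, pfkfb3, a regulator of glycolysis. That made 2 higher and 0 lower there, against 1.69% and 2.18% of all genes, with a list median of -0.04 on the log2 scale. The list was mixed at an unadjusted p under 0.05 in edgeR, with 4 higher and 5 lower in the pair. Over all genes that share was 19.2%, counting both directions.

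Among the 12 largest falls shared by the 3 libraries, cabp5a had the highest level. It encodes a calcium-binding protein that in the mouse retina is made by bipolar cells, which pass the photoreceptor signal inward. Levels were 796, 658 and 769 CPM at 3.0 months, 398 CPM in replicate 1, and 296 and 238 CPM in the pair, below all 9 other libraries. The fall was 1.25 on the log2 scale (standard error 0.19, edgeR adjusted p = 0.0231). Of 17 tested bipolar markers it was the one called, against 0.203% of all genes called lower, and the list median was -0.14 on the log2 scale. Its paralog cabp5b was lower in the Resub pair (edgeR adjusted p = 0.038), at 57.6 and 60.9 CPM with replicate 1 at 61.1 CPM, against 83.7 to 112 CPM at 3.0 months. The rule by which reads shared between paralogs were counted was not given in the sources used here. In bulk tissue, fewer cells of a type and less RNA per cell cannot be told apart.

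The kinase gene sik2, a salt-inducible kinase, was at 357, 342 and 287 CPM at 3.0 months and at 177, 143 and 147 CPM at 4.5 months. It fell by 1.08 on the log2 scale (edgeR adjusted p = 0.0231). The irritant-gated cation channel gene trpa1 went from 12.9, 11.4 and 12.6 CPM to 5.71, 5.24 and 3.92 CPM (log2 change -1.31, edgeR adjusted p = 0.0231). That the groups do not overlap was fixed by the choice of shared genes. Replicate 1 was the highest of the 3 libraries of 4.5 months in both genes.

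The neurofascin gene nfascb, a cell-adhesion protein of axons, was at 14.9, 13.9 and 19.2 CPM and then at 9.15, 7.74 and 6.24 CPM (log2 change -1.05, edgeR adjusted p = 0.0418). The intracellular growth factor homolog gene fgf11b, the death-effector gene dedd2 and the lipid transporter gene mfsd2b had log2 changes of -1.04, -1.01 and -1.09. In these 3 genes replicate 1 lay as low as the pair, for instance at 74.7 CPM against 75.4 and 70.2 CPM in dedd2, where the 3.0-month libraries had 126 to 162 CPM. At 1.5 months dedd2 was at 91.4, 106 and 85.6 CPM, between the libraries of 3.0 and 4.5 months. The falls of adad2, whose relatives edit or bind double-stranded RNA, of lurap1 and of si:ch1073-390k14.1 were 1.98, 1.24 and 1.48 on the log2 scale, all at levels under 22 CPM. In adad2 the lowest 3.0-month library, replicate 2 at 5.92 CPM, came close to replicate 1 of 4.5 months at 4.21 CPM.

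The tubulin gene tubb5, a structural subunit of microtubules held in the list of retinal ganglion cell genes, was at 250, 242 and 287 CPM at 3.0 months and at 124, 138 and 137 CPM at 4.5 months. It fell by 0.97 on the log2 scale (standard error 0.17, edgeR adjusted p = 0.0454), and replicate 1 was the lowest of the 3. Ganglion cells are the neurons whose axons form the optic nerve. None of their 18 tested genes had a log2 change above 0, against 10979 of all 20717. The median was -0.49, or -0.16 in replicate 1 and -0.90 in the Resub pair. Their summed level was 3028 CPM in replicate 1, inside the 3.0-month range of 2205 to 3471 CPM where replicate 2 was the lowest, and 1772 to 1808 CPM in the pair. In the pair 3 of the 18 were called, all lower, against 2.18% of all genes. Besides tubb5 they were 2 members with replicate 1 beyond the range on the same side. These were nefm, an axonal neurofilament gene, at 58.3, 51.1 and 62.3 CPM, then 32.5 CPM in replicate 1 and 24.1 and 23.7 CPM in the pair, and elavl4, a neuronal RNA-binding protein gene, at 50.1 CPM in replicate 1 and 35.5 and 36.1 CPM in the pair.

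The photoreceptor lists, by contrast, held no call for the step in edgeR, with 8 of 23 rod and 5 of 18 cone genes higher at an unadjusted p under 0.05, and 1 and 2 lower. Over all genes these shares were 6.68% higher and 8.05% lower. DESeq2 called 3 rod and 4 cone genes higher and 2 cone genes lower, against 1.71% and 2.77% of all genes. The short-wave cone opsin gene opn1sw came closest. Its levels were 403, 452 and 330 CPM at 3.0 months and 637, 741 and 630 CPM at 4.5 months, with replicate 1 among the pair. The log2 change was 0.76 ± 0.15 (edgeR adjusted p = 0.0548; DESeq2 adjusted p = 7.52e-05). The 4.5-month levels overlapped those of 1.5 months, 691 to 865 CPM, and lay above those of 6.0 months, 213 to 234 CPM.

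Its paralog opn1sw2 was at 588, 654 and 505 CPM and then at 1051, 1058 and 934 CPM (log2 change 0.80, edgeR adjusted p = 0.0765, DESeq2 adjusted p = 0.000886). The long-wave opsin gene opn1lw1 was at 840, 1517 and 888 CPM and then at 2452, 3540 and 3556 CPM (log2 change 1.56, edgeR adjusted p = 0.112, DESeq2 adjusted p = 0.00249). In each of the 3 opsin genes the 4.5-month group was higher without overlap, as in 9.31% of all genes. Of the 18 cone genes, 5 were higher and 2 lower without overlap. The 3 opsin genes were looked up by name with earlier results of these data known. Each passed in DESeq2 but not in edgeR. The cone list as a whole had a median log2 change of -0.06 in the step. Of its 18 genes, 9 were above 0, against 10979 of all 20717.

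In the Resub pair 6 of the 23 rod genes were called, all higher, against 1.69% of all genes. In 4 of them, prph2a, prph2b, gnb1b and pde6b, replicate 1 also lay above the 3.0-month range, though by log2 changes of 0.12 to 0.46. Over all 803 genes called for the pair, replicate 1 lay beyond that range on the same side in 59%. The peripherin genes shape the rim of the outer segment discs, and gnb1b and pde6b belong to the light-signalling cascade. For prph2a the levels were 238, 284 and 205 CPM at 3.0 months, 334 CPM in replicate 1, and 489 and 439 CPM in the pair. The channel gene cnga1 and the rod transcription factor gene nrl were higher in the pair alone. Over the 23 rod genes the median log2 change was 0.56 in the pair and -0.03 in replicate 1. Of the 18 cone genes, opn1sw, gnb3b and gnat2 were higher (1.69% of all genes) and guca1d was lower (2.18%), each with replicate 1 beyond the range on the same side. For replicate 1 the log2 change was 0.69 in opn1sw and -0.90 in guca1d, but only 0.28 in gnb3b and 0.08 in gnat2. The cone list median was -0.08 both in the pair and in replicate 1.

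Genes of Mueller glia, the radial glia that recycle transmitter and buffer potassium, held no call for the step in edgeR. At an unadjusted p under 0.05 there, 5 of 22 were lower and 0 higher (8.05% and 6.68% of all genes). DESeq2 called 3 lower, against 2.77% of all genes. In the pair 5 of the 22 were called, all lower, against 2.18% of all genes. The summed level of the 22 genes was 6125 to 6373 CPM in the pair and 11120 CPM in replicate 1, and the pair lay inside the range of 3.0 months, 5681 to 9364 CPM, where replicate 2 was the lowest. For s100b, kcnj10a and kcnj10, the last 2 potassium channel genes, replicate 1 was below the 3.0-month range as well. In rlbp1a, a retinoid-binding protein gene, and glula, a glutamine synthetase gene, it was not, with glula at 2778 CPM in replicate 1 and at 1503 and 1518 CPM in the pair, against 2536 to 2871 CPM at 3.0 months. The list median was -0.57 in the pair and 0.08 in replicate 1 on the log2 scale.

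Myelin genes had the lowest median of the retinal cell lists in the step, -0.90 on the log2 scale, with 10 of 20 lower at an unadjusted p under 0.05 (8.05% of all genes), none called by edgeR and 2 lower in DESeq2 (2.77% of all genes). Fish optic nerves are myelinated, and how much of the nerve head stays with a dissected retina is not given in the labels. In the pair 4 of 20 were called, all lower, against 2.18% of all genes: ugt8, a lipid enzyme of myelin, with replicate 1, and mag, tspan2a and cldn19 in the pair alone. For ugt8 the levels were 22.5, 14.95 and 27.14 CPM at 3.0 months, 11.2 CPM in replicate 1, and 7.88 and 5.74 CPM in the pair. The summed level of the 20 genes already spanned 489 to 1164 CPM within the 3.0-month group, so that replicate 1, at 699 CPM, lay inside that range and the pair, at 370 to 448 CPM, just below it.

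**Figure D4:**
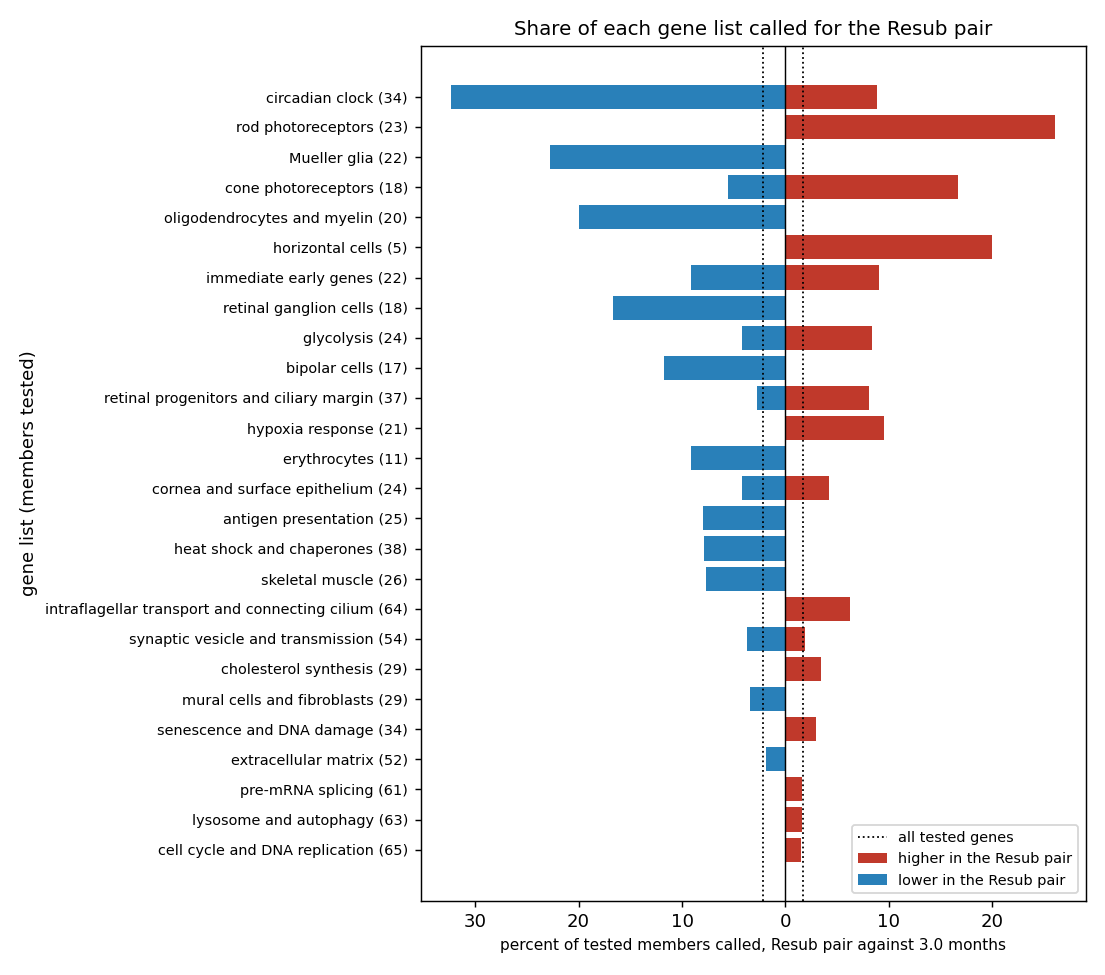
For each gene list with a call, the percent of its tested members (number in brackets) that were called lower (left) or higher (right) in the Resub pair against 3.0 months; dotted lines give the same over all tested genes. The clock list is the longest bar to the lower side, and rod genes reach to the higher side only.

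The 803 genes called for the Resub pair fell into 474 with replicate 1 beyond the 3.0-month range on the same side (2.29% of tested genes; 191 higher, 283 lower) and 329 in the pair alone (1.59%; 160 higher, 169 lower). Replicate 1 lay outside the 3.0-month range in 62.4% of all genes. In 91 of the 329 it lay on the opposite side. A direct comparison of the pair with replicate 1 called 165 genes (0.796%), 64 of them among the 329. The remaining 265 of the 329 are thus seen in the pair alone without a difference from replicate 1 that passed. The count of 803 ranged from 45 to 1443 when single libraries were left out; it was 45 and 66 without Resub replicate 2 or 3, where the remaining Resub library stood by itself, 1443 without replicate 2 of 3.0 months, and 360 and 423 without replicates 1 and 3 of that age. The 165 became 1 without either Resub library, 1471 without replicate 2 of 3.0 months and 48 without its replicate 1.

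The 5 largest rises in the pair alone were cdr2a, prdm1b, slc12a1, rx2 and si:dkey-40c11.2. The transcription factor gene prdm1b, whose mouse counterpart acts in the choice between photoreceptor and bipolar fate, was at 35.9, 45.8 and 45.02 CPM at 3.0 months, 26.4 CPM in replicate 1, and 220 and 215 CPM in the pair. The pair was 2.37 above 3.0 months on the log2 scale (edgeR adjusted p = 3.65e-05) and 3.05 above replicate 1 (edgeR adjusted p = 0.000973). The retinal homeobox gene rx2, which in medaka marks stem cells of the ciliary margin and also photoreceptors, was at 112, 64.5 and 121 CPM at 3.0 months, 111 CPM in replicate 1, and 473 and 431 CPM in the pair. Its difference from replicate 1 did not pass (edgeR adjusted p = 0.0597). The neural factor genes neurod1 and neurod4 were also higher in the pair alone, and the proliferation gene pcna was level, at 59.4 to 82.1 CPM at 3.0 months and 78.1 to 83.6 CPM at 4.5 months. Of 37 tested genes of retinal progenitors and the ciliary margin, 3 were called higher and 1 lower in the pair, against 1.69% and 2.18% of all genes. The median log2 change of that list was -0.11 in the pair and 0.01 in replicate 1, so its typical member did not rise. Its summed level did rise in the pair, to 2201 to 2306 CPM against 1513 to 1731 CPM at 3.0 months. In replicate 1 that sum was 1644 CPM.

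The 5 largest falls in the pair alone were fosb, zgc:122979, siglec10, atp2a1 and prodha. The immediate early gene fosb, which in neurons is switched on within minutes of a stimulus, was at 3.05, 7.10 and 8.54 CPM at 3.0 months, 6.19 CPM in replicate 1, and 0.12 and 0.40 CPM in the pair. Of 22 tested immediate early genes, 2 were higher and 2 lower in the pair, against 1.69% and 2.18% of all genes; besides fosb, jund was lower and dusp1 and fosl2 were higher, and in dusp1 replicate 1 lay above the 3.0-month range too. The muscle calcium pump gene atp2a1 and the muscle actin gene actc1a were lower in the pair alone, and the 26 skeletal muscle genes summed to 167 to 266 CPM at 3.0 months, 247 CPM in replicate 1 and 123 to 133 CPM in the pair; the part of muscle RNA in these values was not tested.

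**Figure D5:**
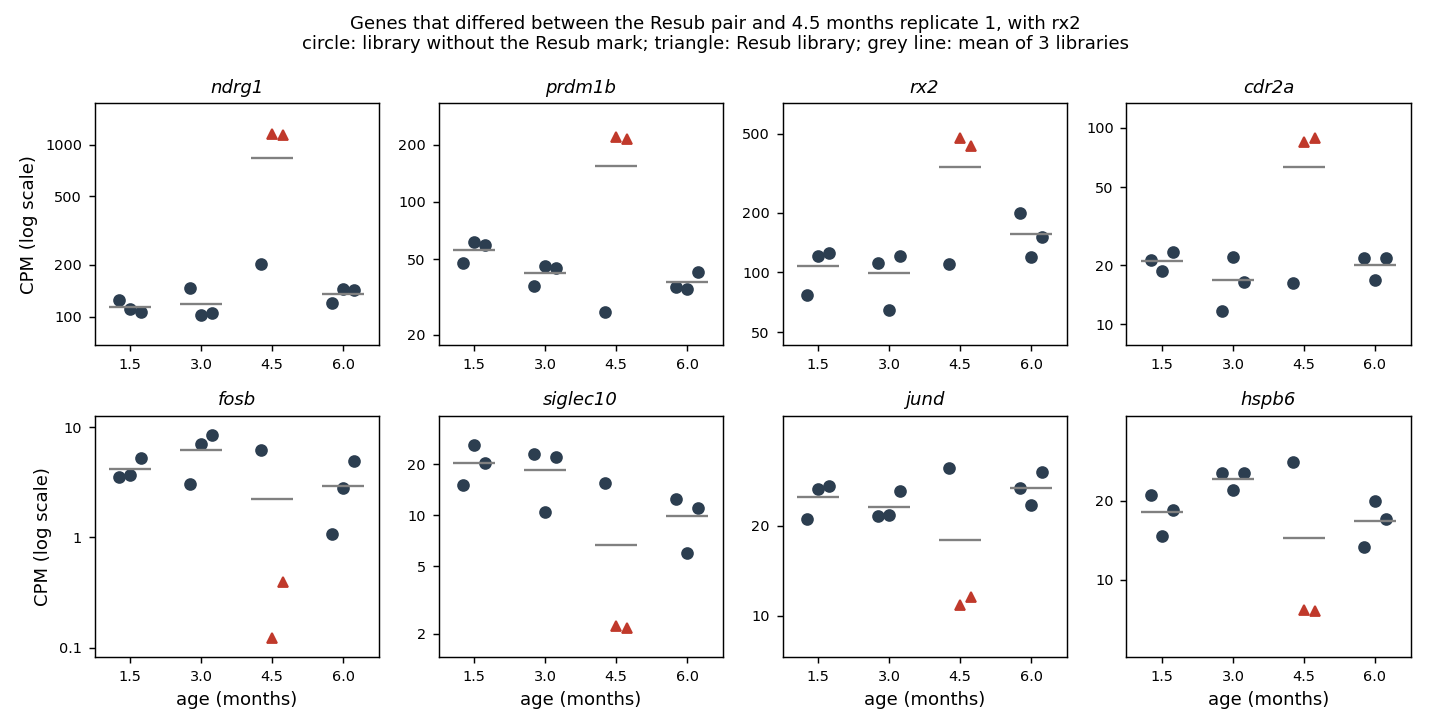
CPM (y axis, log scale) by age for 8 genes called for the Resub pair, with symbols as in the plot of clock genes. The 2 triangles lie beyond the other 10 libraries on one side in each panel; the circle of 4.5 months does not join them and is itself the highest circle in ndrg1 and the lowest in prdm1b.

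Replicate 1 carried changes of its own. Lens genes had a median log2 change of 8.05 in replicate 1 and 1.82 in the pair. In the step 13 of 24 were higher without overlap (9.31% of all genes). None was called in edgeR or in DESeq2, and 1 was at an unadjusted p under 0.05 in edgeR. The lens crystallin gene cryaa was at 823 CPM in replicate 1, at 9.30 and 0.16 CPM in the pair and at 0.05 to 0.41 CPM at 3.0 months. Genes of erythrocytes had a median of 2.36 and ribosomal protein genes one of 0.79 on the log2 scale in replicate 1, against -0.33 and -0.49 in the pair. The 3 genes called for replicate 1 beyond nr1d4a and csgr19h18orf21 were c3, a complement gene, spon1b, a secreted matrix gene, and 1 gene without a symbol. For c3 the levels were 19.4 CPM in replicate 1, 0.08 in both Resub libraries and 0.23 to 0.84 CPM at 3.0 months. Without the 3 libraries of highest lens RNA, 440 genes were called. Replicate 1 is among these 3, so only the Resub pair stood for its age in that fit. Those 440 calls cannot be told apart from what the mark stands for.

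At the other ages, 60 of the 66 shared genes had all 3 libraries of 4.5 months beyond all 9 others on one side, 22 above and 38 below. The choice of the 66 had already fixed 3 of these 9. The same held for 5.11% of all tested genes, and for 1058 or 27.8% of the 3799 whose groups of 3.0 and 4.5 months did not overlap, so nothing is read from the count. Between 1.5 and 3.0 months 0 of the 66 were called in edgeR, where 4 genes passed in all (0.0193%). At an unadjusted p under 0.05 in edgeR there were 21 of the 66, against 12.6% of all genes. DESeq2 called 2 of the 66, with no share over all genes taken. The 3.0-month libraries enter both this comparison and the step that chose the 66. These counts therefore cannot be weighed against those of all genes. The comparison of 6.0 with 1.5 months takes its log2 changes from fish outside the step. Its estimate of spread, however, came from the same fit as the step and includes the libraries of 3.0 and 4.5 months. The 66 genes had passed a test that favours low spread in that fit. Their share of calls at 6.0 against 1.5 months therefore cannot be weighed against that of all genes. In this comparison 7 of the 66 were called, 10.6% of them and 1.22% of the 575 genes called at those ages (2.78% of all tested). In 4 the direction was that of the step: nr1d4a was 1.28 higher, and trpa1, nfascb and a gene without a symbol were 1.01, 1.26 and 2.16 lower at 6.0 than at 1.5 months on the log2 scale. In 3 it was the other: dedd2 was 0.61 higher, and btbd17a and dgcr2 were 0.62 and 0.45 lower. The level of nr1d4a was 3.07 to 3.98 CPM at 1.5 months and 7.73 to 9.38 CPM at 6.0 months, so its 6.0-month libraries lay between those of 3.0 and 4.5 months, without overlap. For nfascb the 6.0-month libraries, at 7.003 to 8.04 CPM, lay within the range of 4.5 months. For per3 they were at 185 to 253 CPM, above the whole 4.5-month range, and for ndrg1 at 119 to 144 CPM, below it. The count of 7 was 1 without replicate 1 of 3.0 months or either Resub library, and 119 without replicate 1 of 4.5 months, as the set of shared genes changed with each.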

How the data were processed

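The counts were deposited by the authors as a table of whole numbers of reads per gene for 12 libraries, with no normalization; aligner, counting program, annotation and genome build are not given in the sources used here, so no coordinates or sequences are printed. Nextera XT libraries were read from both ends on a single lane, per the labels' protocols. Of 25122 entries, 14589 are locus numbers, of which 5257 took a symbol through their gene number in the RefSeq table of assembly NfurGRZ-RIMD1. A copy of the count table and the authors' normalized table were not used. 

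The analysis used edgeR 4.0.16 under R 4.3.3. filterByExpr (minimum count 10, minimum total 15) kept 20717 genes, which were scaled by TMM and fitted with estimateDisp and robust glmQLFit, with Benjamini-Hochberg adjustment over all tested genes. One fit of the 12 libraries by age gave 4.5 against 3.0 months and the other comparisons between ages. A second, with the 4.5-month group split into replicate 1 and the Resub pair, gave the comparisons of the pair and of replicate 1. The common biological coefficient of variation was 0.306. CPM are on TMM-scaled library sizes. The standard error of a log2 change was taken from its F statistic. Low counts were mostly even numbers, as when both ends of a fragment are counted.

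Named genes are the 12 largest rises and 12 largest falls among shared genes with a symbol and a mean of at least 5 CPM at either age, the 5 largest of each in the Resub pair alone, called members of 43 gene lists and genes looked up by name. Members and lists were chosen with earlier results of these data known. Fish are labelled as separate biological replicates. Alternatives were DESeq2 1.42.0, RLE scaling, other filters, halved counts, a replicate block, the 6 libraries alone and each library left out. The replicate numbers share only a number.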

Additional observations from a re-analysis of the deposited data

Results flagged for a closer look

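The Resub pair and replicate 1 of 4.5 months are the same age by their labels, and 165 genes differed between them in edgeR's quasi-likelihood test at an adjusted p under 0.05, where replicate 1 is a lone library assumed to vary like the other groups. Among named genes the pair exceeded replicate 1 by 2.504 in ndrg1, 2.42 in cdr2a and 3.05 in prdm1b on the log2 scale. The pair differed from replicate 1 by -2.83 in siglec10, -2.77 in atp2a1, -4.56 in fosb and -3.76 in zgc:122979 on the same scale. Groups of 3 are too small for a check of single samples far from their group.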

How the results depend on the processing

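The alternatives were run for 25 genes named for the step and 10 named for the Resub pair, and none of these changed direction; other list members were run at most in DESeq2. DESeq2 gave 928 genes for the step, 870 shared, 1907 for the Resub pair, 834 for replicate 1, 1530 between pair and replicate 1, and 161 called between 6.0 and 1.5 months among its own shared genes. RLE scaling gave 100 for the step, all shared (29 higher, 71 lower), and 12 between 6.0 and 1.5 months. A mean of at least 5 CPM gave 160, all shared, 10 for replicate 1 and 20 between 6.0 and 1.5 months. Halved counts gave 109, all shared, and 13. The 6 libraries alone gave 0, shared genes 0, and leaving out the Resub libraries gave 4. Leaving out the 3 libraries with lens RNA gave 440, with only the Resub pair left for the later age of the step. Those 440 calls cannot be told apart from what the mark stands for. The cause of the differences between settings was not tested. With single libraries left out, the step and its shared genes ranged from 2 to 795, the Resub pair from 45 to 1443, replicate 1 from 0 to 18, pair against replicate 1 from 1 to 1471, and 6.0 against 1.5 months from 1 to 119.

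With the replicate number as a block, 478 genes were called for the Resub pair, 3 for replicate 1, 23 between them and 47 for the step. Deviations of same-numbered libraries correlated at -0.34 to 0.33 (median 0.11, 10 of 18 pairs over 0.1). The 3 fish a group limit the precision, as would counting of both ends, which the sources used here do not state.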

Other observations

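In the step, the median log2 change was -0.23 for 54 genes of synaptic vesicles and transmission, with 17 lower and 2 higher at an unadjusted p under 0.05 in edgeR (8.05% and 6.68% of all genes). None was called by edgeR, and DESeq2 called 6 lower and 1 higher, against 2.77% and 1.71% of all genes. Of 63 lysosome and autophagy genes, 10 were higher and 1 lower at an unadjusted p under 0.05 in edgeR (6.68% and 8.05% of all genes), and the median was 0.18. None was called by edgeR, and DESeq2 called 3 higher, against 1.71% of all genes. In the Resub pair alone, 4 of 64 genes of intraflagellar transport and the connecting cilium, the stalk that carries proteins into the photoreceptor outer segment, were called, all higher, against 0.772% of all genes: arl13b, bbs1, traf3ip1 and cnga1, which is also a rod gene. The cell-cycle inhibitor gene cdkn1d was at 78.6, 114 and 66.9 CPM at 3.0 months and at 164, 172 and 179 CPM at 4.5 months, and was higher in the pair (edgeR adjusted p = 0.049) with replicate 1 level with it; for the step its adjusted p in edgeR was 0.0785.

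The corneal proteoglycan gene kera was at 203, 288 and 227 CPM at 3.0 months, 291 CPM in replicate 1, and 812 and 807 CPM in the pair (edgeR adjusted p = 0.00859 for the pair). The other 23 tested cornea and epithelium genes included 1 call in the pair, s100a11, which was lower, against 2.18% of all genes.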
